A study of Homo sapiens with 2 samples.

Results

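The epidermal differentiation complex is a cluster of genes on the long arm of human chromosome 1 whose proteins build and waterproof the outer layers of stratified epithelium. All regions of 2 deposited peak lists that lay in chr1:151900001-153700000 (GRCh38) were taken, which gave 140 of the 94032 regions in both lists. Of these, 77 came from the library labelled lactate and 63 from the library labelled untreated. The stretch of 1.8 Mb holds 68 protein-coding genes in the RefSeq table used. The rule used coordinates alone.

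Both libraries came from CAL27, an established cell line from a human oral squamous cell carcinoma, and were made by CUT&Tag. The method uses an antibody, here one for lysines that carry a lactyl group on whatever protein, to bring the transposase pA-Tn5 to chromatin, where it inserts sequencing adapters. One library was labelled as cells given 10 mM lactate for 24 h and the other as untreated cells, with 1 library in each group, and the labels name no other agent or genetic change. Cells were held on concanavalin A beads and opened with digitonin. The lactate-labelled library held 15120031 tags and the untreated-labelled library 15696147. Differences between 2 single libraries cannot be tested, so none has a p-value. Each 95% interval covers counting error only, and tags are not independent molecules. A library made without the antibody was not used here, so cuts in open chromatin cannot be told apart from the signal of the mark.

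The headers of the lists conflict with the labels. Run name, input file and all peak names of each list point to the other sample, and a single header line points to the labelled one. The labels were followed, and each direction given here would turn round if the lists had been exchanged. Of 8 squamous epithelial markers, 4 in the lactate-labelled and 3 in the untreated-labelled library had a region within 1 kb of a gene end, near the shares over all protein-coding genes (49.5% and 43.5%). Of 4 blood cell markers 2 in the lactate-labelled and 1 in the untreated-labelled library had a region at an end, and of 4 fibroblast markers 1 and 0. CD3E, a T-cell gene, had one in both libraries, and a region at a gene is not a measure of its expression.

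The cornified envelope is the protein shell that replaces the membrane of a keratinocyte at the end of its life. Involucrin, loricrin, the small proline-rich (SPRR) proteins and the late cornified envelope (LCE) proteins are cross-linked into it, and fused S100 proteins such as filaggrin bundle keratin and are later broken down to hold water. Small calcium-binding S100 proteins flank these genes on both sides, among them S100A8 and S100A9, which form an antimicrobial pair, and S100A4 and S100A6, which many carcinoma cells express. Peptidoglycan recognition proteins, which bind bacterial cell walls, lie between the loricrin gene and the second S100 group.

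Promoters are shown for 8 genes whose starts carried a region: the cornified envelope genes IVL, SPRR1B and SPRR1A, 3 LCE genes, and S100A12 and S100A2. Each line gives the 250 bases before the gene's start, on the gene's strand, from RefSeq on GRCh38.p14. Capitals mark letters that match a searched motif: TGANTCA, the AP-1 site, TATAAA, the TATA box, AACCNGGTT, the grainyhead (GRHL) site, GGAATG, the TEAD site, and TTNNGCAA, a C/EBP site, each on both strands. The positions are chr1:152908296-152908545 for IVL, chr1:153030953-153031202 for SPRR1B, chr1:152983831-152984080 for SPRR1A and chr1:152786007-152786256 for LCE1E, all on the plus strand. On the minus strand they are chr1:152566781-152567030 for LCE3E, chr1:152580517-152580766 for LCE3D, chr1:153375622-153375871 for S100A12 and chr1:153565845-153566094 for S100A2.
IVL: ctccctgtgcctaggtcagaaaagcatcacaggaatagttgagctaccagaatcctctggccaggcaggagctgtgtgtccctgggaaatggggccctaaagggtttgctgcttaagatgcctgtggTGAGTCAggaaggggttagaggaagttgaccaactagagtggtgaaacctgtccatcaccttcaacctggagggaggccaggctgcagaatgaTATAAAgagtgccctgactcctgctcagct
SPRR1B: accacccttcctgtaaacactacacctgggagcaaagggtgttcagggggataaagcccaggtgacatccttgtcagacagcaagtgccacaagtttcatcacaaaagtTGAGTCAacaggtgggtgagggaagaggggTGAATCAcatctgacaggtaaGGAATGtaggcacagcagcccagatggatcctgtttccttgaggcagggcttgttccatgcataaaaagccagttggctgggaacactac
SPRR1A: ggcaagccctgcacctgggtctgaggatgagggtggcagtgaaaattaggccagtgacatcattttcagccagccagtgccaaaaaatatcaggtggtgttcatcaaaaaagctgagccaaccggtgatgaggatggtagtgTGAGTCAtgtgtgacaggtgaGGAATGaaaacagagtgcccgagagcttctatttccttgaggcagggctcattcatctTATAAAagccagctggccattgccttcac
LCE1E: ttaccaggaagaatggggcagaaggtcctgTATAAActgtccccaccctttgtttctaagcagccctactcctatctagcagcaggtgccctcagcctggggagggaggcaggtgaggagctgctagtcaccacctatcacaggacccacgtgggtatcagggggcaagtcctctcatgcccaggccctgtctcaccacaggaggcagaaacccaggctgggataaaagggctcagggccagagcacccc
LCE3E: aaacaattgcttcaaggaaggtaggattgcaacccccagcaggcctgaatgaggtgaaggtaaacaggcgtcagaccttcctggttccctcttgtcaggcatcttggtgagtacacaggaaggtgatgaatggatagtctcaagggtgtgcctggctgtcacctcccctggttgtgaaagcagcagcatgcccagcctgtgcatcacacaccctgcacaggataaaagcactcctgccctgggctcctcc
LCE3D: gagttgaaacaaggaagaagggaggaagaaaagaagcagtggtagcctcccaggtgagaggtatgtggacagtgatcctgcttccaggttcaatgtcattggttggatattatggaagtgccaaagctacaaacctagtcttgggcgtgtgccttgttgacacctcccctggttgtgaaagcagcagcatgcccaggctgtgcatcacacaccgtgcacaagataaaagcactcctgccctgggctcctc
S100A12: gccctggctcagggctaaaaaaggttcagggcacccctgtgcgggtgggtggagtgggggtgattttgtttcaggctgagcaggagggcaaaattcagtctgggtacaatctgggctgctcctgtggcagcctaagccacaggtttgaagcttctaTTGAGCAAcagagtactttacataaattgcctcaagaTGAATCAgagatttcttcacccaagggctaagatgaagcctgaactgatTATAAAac
S100A2: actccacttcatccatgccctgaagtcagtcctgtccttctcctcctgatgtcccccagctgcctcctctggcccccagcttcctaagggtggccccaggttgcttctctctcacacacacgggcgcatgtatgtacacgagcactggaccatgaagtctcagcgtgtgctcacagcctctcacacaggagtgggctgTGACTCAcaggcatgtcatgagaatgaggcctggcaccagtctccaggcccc

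The AP-1 letters stood in 19 of the 64 promoters of the complex that the table holds (29.7%), against 5.04% of all 15842 promoters of protein-coding genes. The TATA letters stood in 30 of 64 (46.9%), against 9.23% of all. A C/EBP match stood in 12 of 64 (all promoters, 7.23%) and a TEAD match in 14 of 64 (all promoters, 10.1%). No promoter of the complex held the GRHL letters, which 0.208% of all promoters hold. AP-1 matches were mostly in the group counted here as cornified envelope genes, 16 of 40 with a promoter in the table. That group also takes in SMCP, a sperm mitochondrial protein gene.

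In 6 of the 19 promoters that carried a region in either library the AP-1 letters were present, at IVL, SPRR1A, SPRR1B, S100A12, S100A3 and S100A2. This share is near the 29.7% (19 of 64) over all promoters of the complex. The TATA letters stood in 4 of the 19 (complex, 30 of 64), a TEAD match in 2 (complex, 14 of 64) and a C/EBP match in 4 (complex, 12 of 64). The whole AP-1 match lay inside a region at 5 of the 6 promoters in the lactate-labelled library and at 3 in the untreated-labelled library. These are all of the 6 that carried a region in that library, so the counts repeat where regions were called. At IVL the match begins 123 bases before the start, and SPRR1B has a pair of matches, 141 and 111 bases before it. SPRR1A has 1, at 108 bases. At S100A12 and S100A2 the match begins 57 and 52 bases before the start. The TATA letters begin 30 bases before the start at IVL and 29 at SPRR1A, but 220 at LCE1E and 8 at S100A12. A match describes the letters and says nothing of binding or of use as a TATA box.

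Neighbouring paralogs share parts of these promoters. LCE3E and LCE3D have an identical run of 36 bases, visible in their lines above, and PGLYRP4 and PGLYRP3 have one of 65 bases. LCE1F and LCE1E share a run of 24 bases, and SPRR1A and SPRR1B one of 18. The LCE, SPRR2, filaggrin and hornerin genes hold near-identical copies or repeats, so reads there can be placed on the wrong copy or lost. The input names in the file headers carry the tag uni, and its effect on coverage here was not tested.

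Regions were denser in the complex than over the rest of chromosome 1 in both libraries. There were 42.8 regions per Mb (95% Poisson interval, 33.8 to 53.5) in the lactate-labelled library and 35 per Mb (26.9 to 44.8) in the untreated-labelled library. The rest of the chromosome held 20.4 and 17.5 per Mb, giving ratios of 2.1 in the lactate-labelled and 2.00 in the untreated-labelled library. Neighbouring stretches of the same length were about as dense. The one before the complex had 35.6 per Mb in the lactate-labelled and 32.8 in the untreated-labelled library, and the one after it 45.6 and 32.8. There were 37.8 protein-coding genes per Mb in the complex, 33.9 and 31.1 in the stretches before and after it and 8.07 over the rest of the chromosome. The complex had the most genes per Mb of the 3 stretches. It also had the most regions per Mb in the untreated-labelled library, while the stretch after it had the most in the lactate-labelled library. Any link of region density to gene density was not tested.

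The lactate-labelled library had 1.22 regions for each region of the untreated-labelled library in the complex (interval 0.865 to 1.73), close to the 1.15 of the whole series. The regions covered 31.1 kb in the lactate-labelled and 23.8 kb in the untreated-labelled library, with median lengths of 320 and 321 bp. Fold enrichment, the authors' value for each peak, is the pileup of tags at the summit over the local background with 1 added to both. It ranged from 2.77 to 11.1 with a median of 4.91 in the lactate-labelled library, and from 2.78 to 8.33 with a median of 4.37 in the untreated-labelled library. Medians over the whole lists were 4.87 in the lactate-labelled and 4.63 in the untreated-labelled library. Folds are read here as ranks within a list, and tags give the depth behind each.

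Regions that overlapped by at least 1 bp across the lists were joined into sites. The 140 regions made 93 sites, 43 found in both libraries, 33 in the lactate-labelled library alone and 17 in the untreated-labelled library alone. Shared regions were 44 of 77 in the lactate-labelled library (57.1%, exact Clopper-Pearson interval 45.4 to 68.4%) and 46 of 63 in the untreated-labelled library (73.0%, 60.3 to 83.4%). Over the whole lists 61.2% of lactate-labelled and 71.2% of untreated-labelled regions were shared, so these shares lie near the background. Of the 10 regions of highest fold, 9 in the lactate-labelled and all 10 in the untreated-labelled library were shared. Shared regions had a median fold of 5.10 in the lactate-labelled and 4.87 in the untreated-labelled library, and unshared regions 4.44 and 3.90. Of the unshared regions, 5 in the lactate-labelled and 2 in the untreated-labelled library lay within 1 kb of a region of the other.

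**Figure D1:**
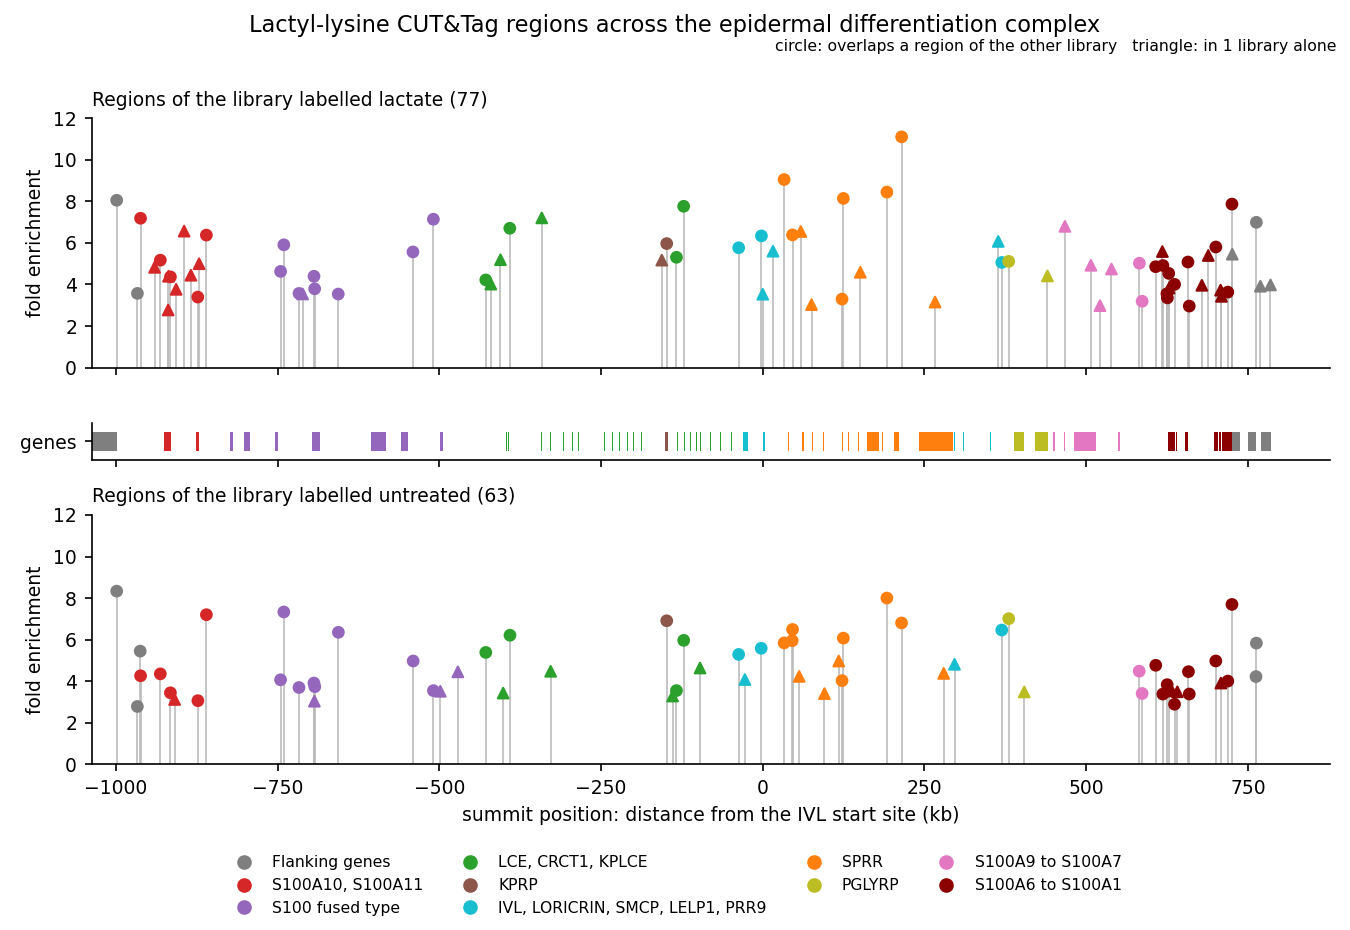
Fold enrichment (ratio, vertical axis) of each region against the distance of its summit from the IVL start (kb, horizontal axis), with the 77 regions of the library labelled lactate above the genes and the 63 of the library labelled untreated below them. Colours give the block of the nearest gene, circles are regions that overlap one of the other library and triangles regions in 1 library alone; the highest point is the site near SPRR2F, at 11.1 in the lactate-labelled library and 6.80 in the untreated-labelled library.

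Most regions of the complex lay outside gene bodies, as most of the stretch does. The summit was outside every protein-coding gene in 61 of 77 lactate-labelled regions (79.2%, 68.5 to 87.6%) and 47 of 63 untreated-labelled regions (74.6%, 62.1 to 84.7%). The whole-series shares were 52.5% in the lactate-labelled and 53.5% in the untreated-labelled library. The genes of the complex are short, with a median length of 2.18 kb against 13.1 and 11.03 kb in the stretches before and after it. Gene bodies cover 21.7% of the complex, so 78.3% of its length is outside them, and the summits' share outside was 1.01 times that in the lactate-labelled and 0.953 times in the untreated-labelled library.

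Windows of 1 kb to both sides of gene ends cover 13.2% of the complex. They held 24 summits (31.2%) in the lactate-labelled library and 21 (33.3%) in the untreated-labelled library, or 2.35 and 2.52 times their share of the length. In the stretch before the complex the corresponding factors were 4.51 in the lactate-labelled and 4.28 in the untreated-labelled library, and in the stretch after it 4.69 and 4.10. Gene ends thus held more summits than their length in all 3 stretches, with the lowest factors in the complex.

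By position, 26 lactate-labelled and 22 untreated-labelled regions touched a gene-end window, 8 in each library lay inside a gene beyond those windows, and 43 and 33 lay between genes. Regions between genes had a median fold of 5.11 in the lactate-labelled and 4.96 in the untreated-labelled library. Regions at gene ends had medians of 4.47 and 4.01. The recomputed background had a median of 1.90 tags between genes and 3.04 at gene ends in the lactate-labelled library, and of 2.20 and 2.39 tags in the untreated-labelled library.

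A gene was called marked when a region overlapped the 1 kb windows at either end. Of the 68 genes, 22 were marked in the lactate-labelled library (32.4%, 21.5 to 44.8%) and 21 in the untreated-labelled library (30.9%, 20.2 to 43.3%). Over all 20037 protein-coding genes the shares were 49.5% in the lactate-labelled and 43.5% in the untreated-labelled library. In the stretch before the complex 60.7% of genes were marked in the lactate-labelled and 55.7% in the untreated-labelled library, and in the stretch after it 64.3% and 46.4%. The complex thus combined a high density of regions with a low share of marked genes.

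Of the 68 genes, 14 were marked in both libraries (all genes, 39.8%), 8 in the lactate-labelled library alone (all genes, 9.7%) and 7 in the untreated-labelled library alone (all genes, 3.74%). The remaining 39 were marked in neither. The 14 genes were 20.6% of the 68 (11.7 to 32.1%), the 8 were 11.8% (5.22 to 21.9%) and the 7 were 10.3% (4.24 to 20.1%), so that the share marked in both lies below the background and the share in the untreated-labelled library alone above it. Among the 7, CRNN, LCE3D, LCE1B, SPRR3, LELP1 and PGLYRP3 rest on regions of 6 to 9 tags, where the lowest pileup of the list is 6, and S100A3 on 24 tags. All 7 have folds below 5, from 3.40 to 4.81. Neighbouring genes can share a region, so genes are not independent counts. Strands came from the promoter table for 64 genes. Of these, 21 had a region at the start in the lactate-labelled and 16 in the untreated-labelled library, and 5 and 6 had one at the other end. Shares of starts and other ends over all genes are not given here, so these counts are not read as a trait of the complex. A region overlapped the promoter window, from 250 bases before to 50 after the start, in 16 genes in the lactate-labelled library (all genes, 42.5%) and in 11 in the untreated-labelled library (all genes, 36.8%).

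**Figure D2:**
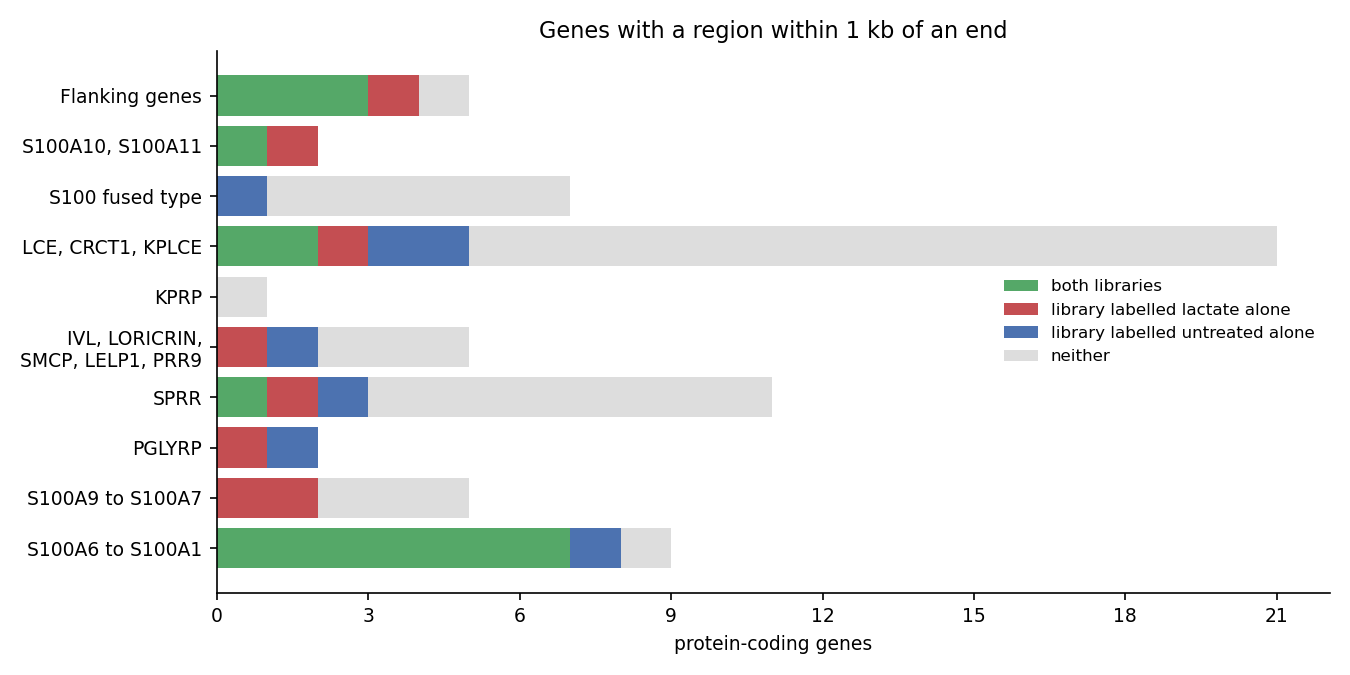
Number of protein-coding genes (horizontal axis) in each block of the complex (vertical axis), by whether a region lay within 1 kb of an end in both libraries, in the library labelled lactate alone, in the library labelled untreated alone or in neither. Of 9 genes from S100A6 to S100A1, 7 were marked in both libraries, and of 21 genes in the LCE block 16 were marked in neither.

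The group counted here as cornified envelope genes joins the fused S100 type, LCE, SPRR and single genes, and numbers 44. It takes in SMCP, a sperm mitochondrial protein gene, and leaves out KPRP, so its name is a label for the lists. Of the 44 genes 6 were marked in the lactate-labelled and 8 in the untreated-labelled library, 33 in neither, and 30 had no region at an end or inside in either library. Of the 16 S100 genes, 11 were marked in the lactate-labelled and 9 in the untreated-labelled library. The shares over all genes, 49.5% and 43.5%, stand against both counts.

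**Figure D3:**
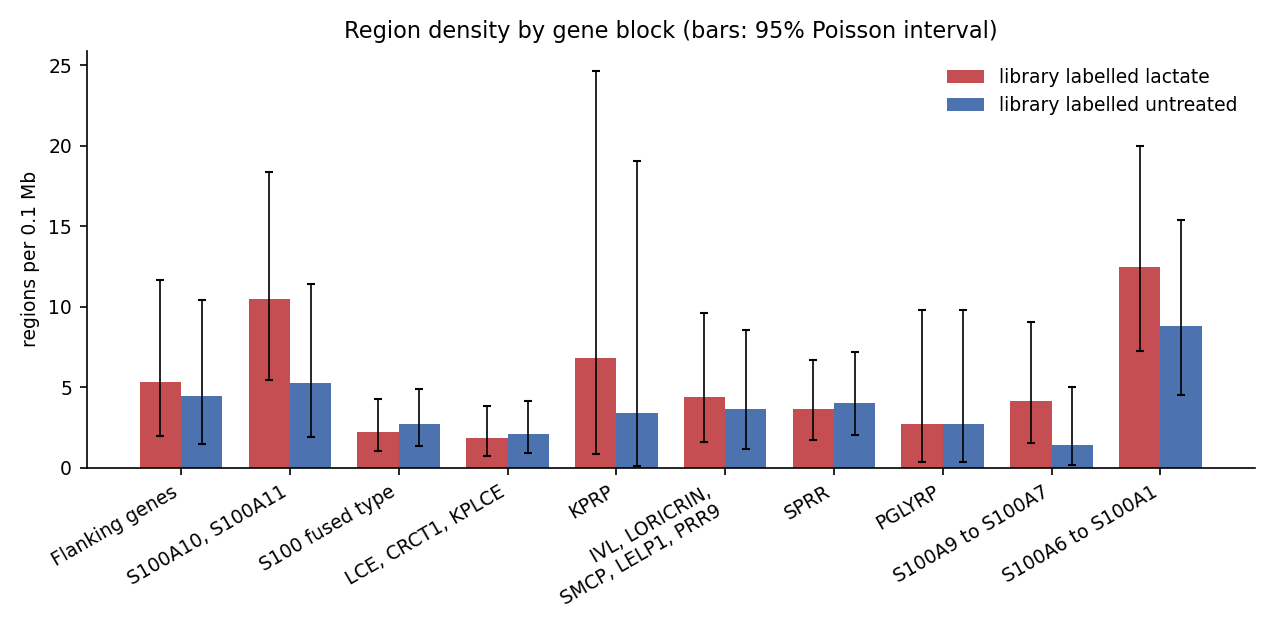
Regions in each 0.1 Mb (vertical axis) in each block of the complex (horizontal axis), with red bars for the library labelled lactate and blue bars for the library labelled untreated; error bars are 95% Poisson intervals of the counts. The blocks from S100A6 to S100A1 (12.5 and 8.80 per 0.1 Mb) and of S100A10 and S100A11 (10.5 and 5.25) stand highest, the value 5.25 without 1 region of a site that is counted in part with the flanking genes. The LCE block is lowest in the lactate-labelled library (1.85, against 2.12 in the untreated-labelled library), and the block from S100A9 to S100A7 is lowest in the untreated-labelled library (4.16 in the lactate-labelled library, against 1.39).

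S100A10 and S100A11 open the complex. S100A10 is the partner of annexin A2 at the cell membrane, and S100A11 is a keratinocyte S100 protein that takes part in the cornified envelope. Their block held 12 regions in the lactate-labelled and 6 in the untreated-labelled library, on 13 sites of which 5 were shared, 7 lay in the lactate-labelled library alone and 1 in the untreated-labelled library alone. The 6 leave out 1 untreated-labelled region of the first of these sites, whose summit lies nearer to THEM4 and which is counted with the flanking genes. Just before it, the THEM4 start carried a shared region, chr1:151909196-151909796 with fold 8.06 and 33 tags in the lactate-labelled library and chr1:151909370-151909735 with fold 8.33 and 26 tags in the untreated-labelled library. THEM4 encodes a mitochondrial thioesterase.

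A shared site with its summits inside S100A10 touched the 1 kb window at the gene's start but not the promoter window. It had 50 tags and fold 4.37 in the lactate-labelled library (chr1:151992455-151992892) and 28 tags and fold 3.44 in the untreated-labelled library (chr1:151992483-151992897). Scaled to 1000000 tags in each library, this height was 1.85 times as high in the lactate-labelled library (interval 1.15 to 3.06). The local background was also higher there, 10.7 tags in the lactate-labelled and 7.44 in the untreated-labelled library, a ratio of 1.49 once scaled in the same way. Inside S100A10 the lactate-labelled library had 2 further regions that the other lacked, with 42 tags at fold 4.40 and 25 tags at fold 2.77. The second is the lowest fold of the complex. S100A10 thus had 3 regions in the lactate-labelled and 1 in the untreated-labelled library.

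S100A11 had a region over its promoter in the lactate-labelled library alone, chr1:152036906-152037215, with 21 tags and fold 5.00. Inside the gene a shared site had 14 tags and fold 3.39 in the lactate-labelled library and 10 tags and fold 3.06 in the untreated-labelled library. The letters of a C/EBP match in that promoter lay inside the lactate-labelled region.

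Between these genes and beside them lay most of the block's regions. The site of highest fold in the lactate-labelled library, 36.4 kb past the far end of S100A10, was 1 region of 43 tags and fold 7.19 in the lactate-labelled library (chr1:151945809-151946675) and 2 in the untreated-labelled library, of 26 tags at fold 5.44 and 19 tags at fold 4.26. Its scaled height was 1.72 times as high in the lactate-labelled library (interval 1.03 to 2.91). A weaker shared site 32 kb upstream of THEM4 had 18 tags at fold 3.57 in the lactate-labelled library and 10 tags at fold 2.78 in the untreated-labelled library. Both sites lie in the non-coding gene LOC124904421.

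Closer to S100A10, a shared site near 5.86 kb from the gene had 14 tags at fold 5.17 in the lactate-labelled library and 13 tags at fold 4.35 in the untreated-labelled library. Of the sites in 1 library, 4 between genes were in the lactate-labelled library, with 10 tags at fold 4.82, 17 at 3.77, 17 at 6.57 and 11 at 4.44, and 1 in the untreated-labelled library had 16 tags at fold 3.11. The sites at folds 6.57 and 4.44 lie in the non-coding gene LOC105371442. A broad shared site 11.2 kb upstream of S100A11, in the non-coding gene LOC101927949, had 36 tags and fold 6.38 over 1030 bp in the lactate-labelled library and 37 tags and fold 7.20 over 722 bp in the untreated-labelled library. Its scaled heights were nearly equal, at a ratio of 1.01 (interval 0.620 to 1.64).

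The fused S100 genes encode large repeat proteins of the cornified layer and the hair follicle: filaggrin (FLG) and filaggrin-2 (FLG2), hornerin (HRNR), repetin (RPTN), trichohyalin (TCHH), TCHHL1 and cornulin (CRNN). Over 402 kb they held 9 regions in the lactate-labelled and 11 in the untreated-labelled library, or 2.24 and 2.74 per 0.1 Mb. Of the 7 genes none was marked at an end in the lactate-labelled library, and CRNN alone was marked in the untreated-labelled library. FLG, whose loss-of-function variants cause ichthyosis vulgaris, had no region at an end or inside in either library. An empty span of 115.1 kb, chr1:152252461-152367524, held FLG and FLG2 whole, and another of 114.1 kb held TCHHL1, TCHH and RPTN.

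HRNR was the fused gene with regions inside it, 2 in the lactate-labelled and 3 in the untreated-labelled library. Of its 2 shared sites, the first had 23 tags at fold 4.40 in the lactate-labelled library and 19 at 3.91 in the untreated-labelled library, and the second 21 at 3.79 and 19 at 3.73. A further region of 15 tags at fold 3.03 was in the untreated-labelled library alone. At CRNN the untreated-labelled library had 7 tags at fold 3.51 (chr1:152409814-152410134) at the far end of the gene. The 4 genes TCHHL1, TCHH, RPTN and FLG2 had no region at an end or inside.

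Between the fused genes 6 sites were shared. The one with most tags in both libraries lay 8.75 to 8.78 kb from RPTN, with 23 tags at fold 5.91 in the lactate-labelled library (chr1:152167843-152168656) and 27 tags at fold 7.33 in the untreated-labelled library (chr1:152167807-152168412). Beside it a site near 3.77 kb from RPTN had 14 tags at fold 4.63 in the lactate-labelled and 12 at 4.06 in the untreated-labelled library. These were on the side of RPTN toward HRNR.

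Farther along, a site 10.0 kb past the far end of CRNN had 15 tags at fold 7.14 in the lactate-labelled library and 7 at 3.54 in the untreated-labelled library, the highest ratio of scaled heights of the 43 shared sites (2.22, interval 0.854 to 6.45). The lowest ratio, 0.484 (interval 0.167 to 1.26), was 28.0 kb from HRNR, with 7 tags at fold 3.54 in the lactate-labelled library and 15 at 6.35 in the untreated-labelled library. Both intervals, which cover counting error only, include 1, and neither difference was tested. The other 2 shared sites had 10 tags at fold 3.57 in the lactate-labelled and 10 at 3.69 in the untreated-labelled library near HRNR, and 10 at 5.57 and 9 at 4.97 near FLG2. Of the sites in 1 library, a 6-tag region at fold 3.54 was in the lactate-labelled library and an 11-tag region at fold 4.44, 22.8 kb upstream of CRNN, in the untreated-labelled library.

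The LCE block, 21 short genes with CRCT1 and KPLCE among them, had the lowest density in the lactate-labelled library and the second lowest in the untreated-labelled library. LCE proteins are added late to the cornified envelope, and deletion of LCE3B and LCE3C is a known psoriasis risk allele. Over 377.9 kb it held 7 regions in the lactate-labelled and 8 in the untreated-labelled library. Of the 21 genes 3 were marked in the lactate-labelled and 4 in the untreated-labelled library, all at the start where a strand was known. The longest empty span of the complex, 171.5 kb at chr1:152580720-152752267, held LCE3C, LCE3B, LCE3A, LCE2D, LCE2C, LCE2B, LCE2A, LCE4A and KPLCE. Another of 59.5 kb held LCE1B, LCE1A, LCE6A and LCE7A.

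LCE1E and LCE1F carried a shared region over the promoter. LCE1E had 15 tags at fold 7.77 in the lactate-labelled library (chr1:152785968-152786456) and 11 tags at fold 5.96 in the untreated-labelled library (chr1:152786099-152786439). LCE1F had 11 tags at fold 5.31 in the lactate-labelled library and 8 at fold 3.54 in the untreated-labelled library. The LCE1E fold was among the 10 highest of the lactate-labelled library although few tags stood behind it. The background at LCE1E was 1.06 tags in the lactate-labelled and 1.01 in the untreated-labelled library. The value 1.01 is the genome-wide background of that library, the lowest in its list (0.976 in the lactate-labelled list). Other regions stand at this floor, among them those at LCE3D and PGLYRP3 in the untreated-labelled library.

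The other marked LCE genes differed between libraries. The LCE3E promoter had 15 tags at fold 7.21 in the lactate-labelled library alone (chr1:152566664-152567021), and it was the only region among the 10 of highest fold there without a counterpart. Its neighbour LCE3D had 8 tags at fold 4.47 over the promoter in the untreated-labelled library alone (chr1:152580479-152580719). LCE1B, whose strand the table does not give, had 9 tags at fold 4.63 at an end in the untreated-labelled library alone. LCE3E and LCE3D are the paralogs whose promoter letters share the run given above.

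Between LCE genes, a shared site beside CRCT1 had 21 tags at fold 6.71 in the lactate-labelled library (chr1:152517213-152517805) and 18 at fold 6.21 in the untreated-labelled library. Another, 30.5 kb before LCE5A, had 12 tags at fold 4.22 in the lactate-labelled and 16 at 5.38 in the untreated-labelled library. The site beside CRCT1 stands between that gene and LCE3E. Regions in the lactate-labelled library alone had 8 tags at fold 4.02 and 26 tags at fold 5.19, and those in the untreated-labelled library alone had 12 tags at fold 3.42 and 7 at 3.28.

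KPRP, a keratinocyte proline-rich protein gene that stands between the LCE genes, had a shared region inside it. It had 23 tags at fold 5.97 in the lactate-labelled library (chr1:152759762-152760175) and 24 tags at fold 6.91 in the untreated-labelled library (chr1:152759791-152760164), with a ratio of scaled heights of 0.995. A further region 5.62 kb before KPRP, with 11 tags at fold 5.17, was in the lactate-labelled library alone. KPRP was in none of the gene lists and had no region at an end.

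Involucrin (IVL) and loricrin (LORICRIN) are the best known scaffold and bulk proteins of the envelope. They were counted with SMCP, LELP1 and PRR9. The IVL promoter had 12 tags at fold 3.53 in the lactate-labelled library alone (chr1:152908326-152908641), and both its AP-1 and TATA letters lay inside that region. Upstream of IVL a stronger site was shared, with 25 tags at fold 6.34 in the lactate-labelled library (chr1:152905992-152906611, summit 2.1 kb from the gene) and 24 tags at fold 5.58 in the untreated-labelled library (chr1:152906009-152906675, summit 2.42 kb). Its scaled heights were close, at a ratio of 1.08 (interval 0.593 to 1.98). A region was thus called at the IVL start in 1 library and at the upstream site in both.

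LORICRIN had no region at an end or inside in either library, and an empty span of 67.3 kb held it with PRR9. The nearest shared site lay 15.9 kb beyond it in the untreated-labelled library, with 9 tags at fold 5.06 in the lactate-labelled and 12 at 6.46 in the untreated-labelled library. A site 10.5 kb beyond it, with 11 tags at fold 6.07, was in the lactate-labelled library alone. LELP1 had 9 tags at fold 4.81 at its far end in the untreated-labelled library alone, and SMCP, a sperm mitochondrial protein gene, had 10 tags at fold 4.07 inside it in the same library alone.

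Upstream of SMCP a shared site had 14 tags at fold 5.77 in the lactate-labelled library and 12 at 5.28 in the untreated-labelled library. Beyond IVL, 12.4 kb away, the lactate-labelled library alone had 12 tags at fold 5.60. In all, the 5 single genes had 1 marked member in each library, IVL in the lactate-labelled and LELP1 in the untreated-labelled one.

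SPRR genes encode small proline-rich proteins that link other envelope proteins, and SPRR1B and SPRR2A are known as markers of squamous differentiation. The block of 11 genes over 273.8 kb held 10 regions in the lactate-labelled and 11 in the untreated-labelled library. It had the highest block median of fold among blocks of more than 1 gene, 6.47 in the lactate-labelled and 5.84 in the untreated-labelled library. Of the 11 genes 2 were marked in each library, SPRR1A and SPRR1B in the lactate-labelled and SPRR3 and SPRR1B in the untreated-labelled one.

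SPRR1B was marked at both ends in both libraries. At its far end there were 28 tags at fold 8.15 in the lactate-labelled library (chr1:153032767-153033277) and 20 at fold 6.07 in the untreated-labelled library (chr1:153032899-153033219). At its start, over the pair of AP-1 matches, there were 11 tags at fold 3.30 in the lactate-labelled library (chr1:153030789-153031211) and 13 at fold 4.02 in the untreated-labelled library (chr1:153030912-153031197). The far end of SPRR1B thus had more tags than its start in both libraries.

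SPRR1A had 7 tags at fold 3.03 over its promoter in the lactate-labelled library alone (chr1:152983765-152984025), a region that held its AP-1 and TEAD letters but not its TATA letters. SPRR3 had 6 tags at fold 3.40 at its far end in the untreated-labelled library alone. Inside SPRR2G, whose annotated span is long, the lactate-labelled library had 6 tags at fold 3.15 and the untreated-labelled library 8 tags at fold 4.37, at different places. These 4 regions rest on few tags, and the lowest pileup in each whole list is 6.

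The strongest SPRR regions lay between genes. The highest fold of the complex was 11.1, with 29 tags, at chr1:153122945-153123409 in the lactate-labelled library, 3.73 kb from SPRR2F. The same site had 16 tags at fold 6.80 in the untreated-labelled library (chr1:153122945-153123435). Its scaled height was 1.88 times as high in the lactate-labelled library (interval 0.989 to 3.71), and its background was 1.18 times as high. The interval, which covers counting error only, includes 1, and the difference was not tested.

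Beside SPRR2E, a shared site had 23 tags at fold 8.45 in the lactate-labelled library (chr1:153100227-153100609) and 19 at fold 8 in the untreated-labelled library (chr1:153100250-153100584). Before SPRR5, in the non-coding gene LINC01527, a shared site had 22 tags at fold 9.06 in the lactate-labelled library (chr1:152941310-152941693) and 15 at fold 5.84 in the untreated-labelled library (chr1:152941213-152941725). Between SPRR5 and SPRR4 a site of 1021 bp with 22 tags at fold 6.39 in the lactate-labelled library stood over 2 regions of the untreated-labelled library, with 23 tags at fold 6.49 and 21 at 5.95. All 3 places were thus found in both libraries among the SPRR genes, and none touched a gene end.

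Other SPRR sites were in 1 library. The lactate-labelled library alone had 18 tags at fold 6.55, 1.44 kb before SPRR4, and 9 tags at fold 4.59 beside SPRR2A. The untreated-labelled library alone had 11 tags at fold 4.23 before SPRR4 and 13 tags at fold 4.96, 5.20 kb before SPRR1B. No region in either library lay at an end of SPRR2A, SPRR2B, SPRR2D, SPRR2E, SPRR2F or SPRR2G.

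The peptidoglycan recognition genes PGLYRP3 and PGLYRP4 were each marked in 1 library. PGLYRP4 had 14 tags at fold 4.41 over its promoter in the lactate-labelled library alone (chr1:153348541-153348932), and PGLYRP3 had 6 tags at fold 3.48 over its promoter in the untreated-labelled library alone (chr1:153312684-153313025). These are the paralogs with the longest shared promoter run given above. Between LORICRIN and PGLYRP3 a shared site had 17 tags at fold 5.11 in the lactate-labelled library and 21 at fold 7.01 in the untreated-labelled library.

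In the block from S100A9 to S100A7, the genes of calprotectin, calgranulin C and psoriasin, regions were sparse in the untreated-labelled library. There were 6 regions in the lactate-labelled library, or 4.16 per 0.1 Mb (interval 1.53 to 9.05), and 2 in the untreated-labelled library, or 1.39 (0.168 to 5.01). S100A12, which encodes calgranulin C, had 16 tags at fold 6.80 over its promoter in the lactate-labelled library alone (chr1:153375344-153375798), a region that held its C/EBP, AP-1 and TATA letters. S100A7A had 12 tags at fold 4.92 at its start in the lactate-labelled library alone (chr1:153415696-153415974), inside the annotated span of S100A8. No gene of this block was marked in the untreated-labelled library.

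S100A9 and S100A7 had no region at an end or inside in either library. The nearest untreated-labelled region to the one at S100A12 lay 62.3 kb away, and the nearest to the one at S100A7A 74.4 kb away. Between genes the lactate-labelled library alone had 8 tags at fold 2.98 and 12 tags at fold 4.74. The 2 shared sites lay upstream of S100A7, with 20 tags at fold 5.02 in the lactate-labelled library and 17 at fold 4.48 in the untreated-labelled library, and with 11 at 3.19 and 12 at 3.40. The intervals of the 2 densities overlap, and the block was set apart after its values were seen.

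The genes from S100A6 to S100A1 were the most densely marked. S100A6, S100A4, S100A2, S100A14 and S100A16 are expressed in many epithelial cells and carcinomas, and S100A2 is a target of p63 and p53. Of the 9 genes 7 were marked in the lactate-labelled and 8 in the untreated-labelled library, 7 of them in both. S100A16 was marked at an end in neither. The block held 17 regions in the lactate-labelled and 12 in the untreated-labelled library.

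S100A2 carried the longest and highest region of the complex. In the lactate-labelled library it had 61 tags at fold 5.08 over 1432 bp (chr1:153565477-153566908), and in the untreated-labelled library 39 tags at fold 4.45 over 1311 bp (chr1:153565549-153566859). The scaled height was 1.62 times as high in the lactate-labelled library (interval 1.07 to 2.49), and the local background 1.46 times as high. The region covered the promoter and its AP-1 letters in both libraries. Beside it a shared site had 35 tags at fold 2.96 in the lactate-labelled library and 30 at fold 3.38 in the untreated-labelled library.

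S100A6, the calcyclin gene, was marked at both ends in both libraries. Over its promoter the shared site, which also lies at the far end of S100A5, had 42 tags at fold 4.54 in the lactate-labelled library and 30 at fold 3.51 in the untreated-labelled library. A second region there, with 36 tags at fold 3.83, was in the lactate-labelled library alone and 0.405 kb from the nearest region of the other. At the far end of S100A6 the lactate-labelled library had a region of 29 tags at fold 3.36. Another of 29 tags at fold 3.55, its summit 1.20 kb from the gene, lay outside the 1 kb window. Both overlapped 1 region of 30 tags at fold 3.83 in the untreated-labelled library, which touched that window.

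At the S100A4 start there were 28 tags at fold 4.01 in the lactate-labelled library and 20 at fold 2.88 in the untreated-labelled library. S100A3, a hair cuticle S100 gene, had 24 tags at fold 3.48 over its promoter in the untreated-labelled library alone (chr1:153549242-153549610). Inside S100A16 a shared site had 48 tags at fold 5.81 in the lactate-labelled library and 31 at fold 4.97 in the untreated-labelled library. Its scaled height was 1.61 times as high in the lactate-labelled library, with an interval that starts at 1.00. The scaled background there was 1.42 times as high.

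At the S100A14 start each library had a region of its own 0.174 kb apart, with 28 tags at fold 3.73 in the lactate-labelled library and 25 at fold 3.90 in the untreated-labelled library. These count as 2 sites in 1 library each although they mark the same start. The S100A1 start had 16 tags at fold 3.63 in the lactate-labelled and 17 at 4.00 in the untreated-labelled library. A region of 23 tags at fold 3.43 between S100A14 and S100A13 was in the lactate-labelled library alone. Between genes the block had shared sites of 16 tags at fold 4.86 in the lactate-labelled and 15 at 4.76 in the untreated-labelled library, and of 16 at 4.91 and 10 at 3.37. Regions in the lactate-labelled library alone had 19 tags at fold 5.59, 7 at 3.96 and 14 at 5.40.

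S100A13 and CHTOP, an mRNA export factor gene, overlap at their starts on opposite strands. A shared region there had 36 tags at fold 7.87 in the lactate-labelled library (chr1:153633816-153634115) and 31 at fold 7.69 in the untreated-labelled library (chr1:153633803-153634104). Over the S100A13 promoter the lactate-labelled library alone had 24 tags at fold 5.46. Beyond them the start of ILF2, a double-stranded RNA binding protein gene, had 26 tags at fold 6.99 in the lactate-labelled library, over 2 untreated-labelled regions of 18 tags at fold 5.83 and 13 at 4.22, and the site holds the transfer RNA gene TRX-CAT1-1.

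NPR1, the receptor gene for atrial natriuretic peptide, had 12 tags at fold 3.92 at its start and 13 at fold 3.98 at its far end in the lactate-labelled library alone. SNAPIN had no region at an end or inside. The last region of the stretch was the one at the far end of NPR1 in the lactate-labelled library and the one at ILF2 in the untreated-labelled library. Just outside the stretch the nearest regions before it lay 12.6 kb away in the lactate-labelled library (fold 5.33) and 1.17 kb away in the untreated-labelled library (fold 4.17), and after it 8.42 kb (fold 2.99) and 8.60 kb away (fold 5.33).

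The height of shared sites was compared as the highest pileup scaled to 1000000 tags. Over the 43 shared sites the median ratio, lactate-labelled over untreated-labelled, was 1.21, with a range of 0.484 to 2.22, and 33 of 43 were above 1 (all shared sites, 71.2%). Over all 30217 shared sites the median was 1.18. At least 1.5 times as high in the lactate-labelled library were 9 of 43 (20.9%), against 20.3% of all, and 1 of 43 (2.33%) was as much higher in the untreated-labelled library, against 2.94% of all. The heights in the complex thus lay near the background of the whole series.

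In 4 of the 43 shared sites the counting interval of the ratio lay above 1 (all shared sites, 5.05%) and in none below it (all shared sites, 0.189%). These were the sites past the far end of S100A10, inside S100A10, at S100A2 and inside S100A16. Their background ratios were 1.34, 1.49, 1.46 and 1.42, against a median of 1.13 over the 43 sites and 1.08 over all. All 4 lie in the blocks of S100A10 and S100A11 and from S100A6 to S100A1, where the local background was highest. The first of them lies nearly as close to THEM4 as to S100A10. They had 43 to 61 tags in the lactate-labelled library, and the interval is wider where tags are fewer. It includes 1 at the sites near SPRR2F (29 and 16 tags, ratio 1.88) and near CRNN (15 and 7 tags, ratio 2.22). The part of the local background in these heights was not tested.

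**Figure D4:**
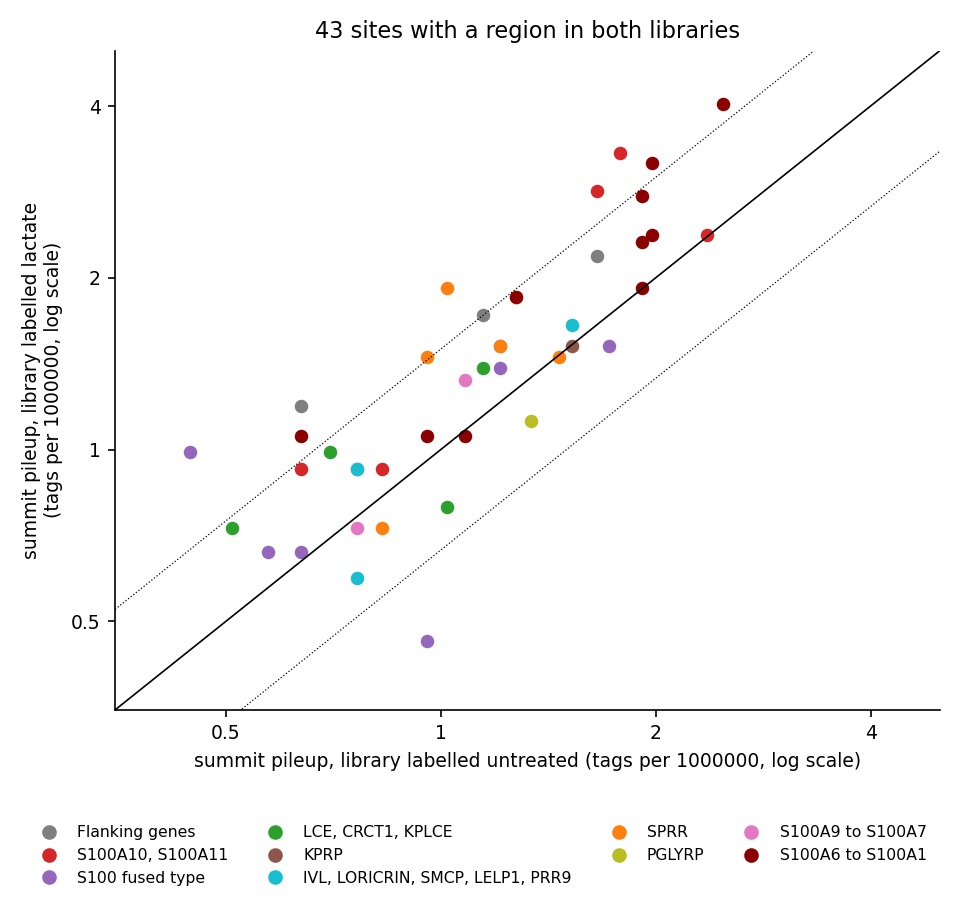
Summit pileup per 1000000 tags of the 43 shared sites on log scales, with the library labelled lactate on the vertical axis and the library labelled untreated on the horizontal axis; each point is a site coloured by its block, and some points coincide. The solid line is equality and the dotted lines are 1.5 times; 33 points lie above equality, and S100A2 is at the top right with 4.03 and 2.48.

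The recomputed local background followed the blocks in both libraries. From S100A6 to S100A1 its median was 6.24 tags in the lactate-labelled and 5.92 in the untreated-labelled library, with highest values of 11.2 and 8.18 tags. At S100A10 and S100A11 it was 3.60 and 3.99 tags, with highest values of 10.7 and 7.44. In the LCE block the medians were 1.26 tags in the lactate-labelled and 1.49 in the untreated-labelled library, and in the SPRR block 1.77 and 1.82. In the block from S100A9 to S100A7 they were 1.88 tags in the lactate-labelled and 2.92 in the untreated-labelled library. At the block medians, a region of the same fold thus had fewer tags among LCE and SPRR genes than at S100A10 and S100A11 or from S100A6 to S100A1. Calls among the LCE and SPRR genes rest on smaller counts than calls in those S100 blocks.

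**Figure D5:**
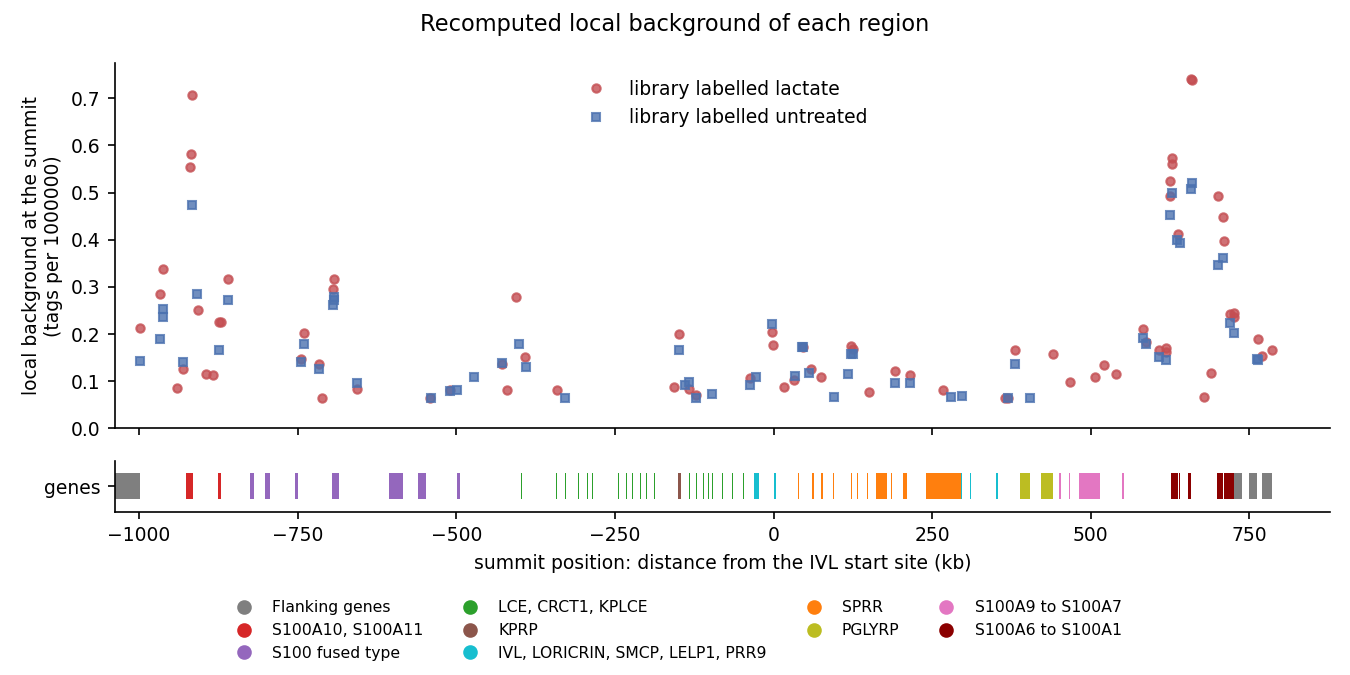
Recomputed local background of each region (tags per 1000000, vertical axis) against the distance of its summit from the IVL start (kb, horizontal axis), with red circles for the library labelled lactate, blue squares for the library labelled untreated and the genes drawn below. The highest values stand over S100A10 at the left and the genes from S100A6 to S100A1 at the right, and the medians of the blocks between them are lower in both libraries.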

How the data were processed

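CUT&Tag libraries of CAL27 cells, 1 given lactate and 1 untreated, were analysed from the authors' deposited peak lists. The tools named in the submitters' processing notes are BWA, fastp 0.20.0 and MACS2 2.1.0, and the build is hg38. Alignment settings and any spike-in scaling are not given in the sources used here. Per the file headers, MACS 2.1.0.20150420 called peaks in each library separately, without a control, at a q threshold of 0.05 with tags shifted by -100 bp and extended to 200 bp, and with a background window of 10000 bp. A shift with extension centres each tag on the transposase cut. The deposited pileup is a coverage signal, the count of tags over the summit without depth scaling, and the deposited fold enrichment is a ratio to the local background.

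Summits with 1 start and end were joined into a region, represented by its summit of highest fold. Background was recomputed as pileup plus 1, divided by fold, minus 1, and -log10 p from the Poisson tail. Genes came from RefSeq GRCh38.p14, and strands and promoters from its promoter table, which held 64 of the 68 genes. In 6 of those 64 the table's start lies inside the annotated gene. Depth was 15120031 tags (lactate-labelled) and 15696147 tags (untreated-labelled), which sets the intervals, exact Clopper-Pearson for shares and Poisson for counts.

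No test was run on 2 single libraries. The stretch, lists and motifs were chosen with earlier results of these data known, and the split of the S100 genes into 3 blocks and the separate block of KPRP after their values were seen. By the naming rule, values were given for the 10 regions of highest fold in each library, every region at an end of or inside a listed gene and every region in 1 library alone. Thresholds, list lengths, windows and overlap rules were varied. The overlap code was checked on simulated data. Scripts ran under Python 3.11.15 with SciPy 1.17.1, numpy 2.4.6, pandas 2.3.3 and, for figures, matplotlib 3.10.9.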

Additional observations from a re-analysis of the deposited data

How the results depend on the processing

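Of 46 alternative values for 10 results, 33 kept their direction and size. With regions of at least 5-fold enrichment, marked genes numbered 11 in the lactate-labelled and 6 in the untreated-labelled library, the region ratio was 1.76 (interval 1.00 to 3.17), summits outside genes were 89.2% and 85.7%, and shared untreated-labelled regions 90.5%. With equal lists of the 21840 strongest regions, marked genes numbered 9 in the lactate-labelled and 8 in the untreated-labelled library, and 87.9% of lactate-labelled summits lay outside genes. These settings leave fewer regions. Shares over the whole series at these settings, and at the -log10 p setting below, are not given here. These counts are thus not set against a background. In the untreated-labelled library marked genes numbered 11 with the promoter window alone and 13 where regions needed -log10 p of 7 or more. Exchanging the lists, an alternative added after seeing the data as was sharing within 1 kb, turned the region ratio to 0.818 and the median height ratio to 0.826, which the exchange itself fixes. No paired analysis was possible because each group has 1 library. Depth limits the calls that rest on under 10 tags, several of them in the LCE, SPRR and fused S100 blocks.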
